A study of Homo sapiens with 9 samples.

Results

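The microRNAs (miRNAs) of Jurkat T cells were compared between 12 h and 5 h of activation. Every miRNA of the count table entered the comparison, each mature miRNA once, from the precursor row with the highest total count. This gave 2654 mature miRNAs, of which 1028 had a count in at least 1 of the 6 libraries of 5 h and 12 h and 629 passed the filter on low counts and were tested. The tested miRNAs held 99.98% of the counts.

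Jurkat clone E6-1 is an established human T lymphoblast line, derived from a leukaemia and used as a model of signalling from the T cell receptor. Both groups were activated in the same way, with anti-CD3 coated on the plate (10 µg/mL) and anti-CD28 in the medium (5 µg/mL), for 5 h or for 12 h. CD3 transmits the signal of the T cell receptor, and CD28 adds costimulation. Each time had 3 biological replicates, and 3 libraries of unactivated cells (0 h) served as the background. All values come from 1 clonal line, and the unactivated cells were taken at 0 h only, so activation and time in culture cannot be told apart. The comparison asks what still changed in the miRNA pool after the first 5 h. Abundance is given in counts per 1000000 miRNA counts of a library after scaling (CPM), which is a share of the pool and not an amount per cell.

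Libraries held 4232272 to 10450005 counts, and a count of 3, used as the floor, stood for 0.276 to 0.731 CPM. The shallowest library was replicate 3 of 12 h, followed by replicate 3 of 0 h. These libraries also lay apart from the other 7 on the first principal components. Replicate 3 of 12 h is therefore named beside the log2 changes that it moves by more than 1.5 times. Of the T cell markers, miR-142-3p lay between 14421 and 17338 CPM and miR-181a-5p between 38867 and 64444 CPM at 5 h and 12 h. At these times miR-181b-5p, miR-342-3p and miR-142-5p lay between 1950 and 32927 CPM. The lowest T cell markers were miR-150-5p, at 351 to 429 CPM, and miR-155-5p, at 11.3 to 20.3 CPM. miR-155-5p thus lay below some markers of other cell types, such as miR-223-3p at 192 to 242 CPM. Of 17 markers of other cell types, 5 were at 0 in all 9 libraries: the muscle miRNAs miR-1-3p, miR-133a-3p and miR-206, the neuronal miR-124-3p and the epithelial miR-205-5p. The summed level of the 17 was 769 to 955 CPM at 5 h and 758 to 888 CPM at 12 h, mostly from miR-9-5p, the myeloid miR-223-3p and the epithelial miR-200c-3p and miR-141-3p. The liver marker miR-122-5p reached 105 CPM in replicate 3 of 5 h, the library with the highest sum, against 0.31 to 14.4 CPM in the others of 5 h and 12 h, and the smooth muscle marker miR-145-5p reached 17.3 CPM there.

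A miRNA is cut from a hairpin precursor as a short duplex of its 5p and 3p arms. One arm is usually retained by an Argonaute protein as the guide, while the other, the passenger, is usually lost soon after processing. The guide finds messenger RNAs by pairing of its seed, bases 2 to 8, and lowers their translation or stability. Mature guides are mostly long-lived, so their levels tend to follow changes in transcription of the host gene slowly. In T cells, receptor signalling through NF-kB, CREB and AP-1 is known to induce the transcripts that host miR-146a, miR-132, miR-155 and miR-21.

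Between 5 h and 12 h, 4 of the 629 tested miRNAs passed a Benjamini-Hochberg adjusted p of 0.05 in edgeR, which is 0.636% of those tested. These are referred to as called. miR-146a-5p, a feedback inhibitor of NF-kB signalling, was higher at 12 h (0.159% of those tested). The lower ones were miR-222-5p, miR-92a-1-5p and miR-4521 (0.477%). The 95% intervals of 190 miRNAs lay within a 2-fold change in either direction, and among the 59 miRNAs above 1000 CPM, this held for 56.

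The mature sequences of these miRNAs are shown with the seed in capitals, because the seed decides which messages a miRNA can recognise. The other arm of the same hairpin is added for miR-92a-1-5p and miR-222-5p, and miR-146b-5p for miR-146a-5p. Sequences and coordinates are those of RefSeq (GRCh38.p14).
miR-146a-5p: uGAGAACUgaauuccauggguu
miR-146b-5p: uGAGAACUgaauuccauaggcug
miR-4521: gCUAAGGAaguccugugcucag
miR-92a-1-5p: aGGUUGGGaucgguugcaaugcu
miR-92a-3p: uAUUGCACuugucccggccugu
miR-222-5p: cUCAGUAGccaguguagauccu
miR-222-3p: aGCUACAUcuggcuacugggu
miR-146a-5p and miR-146b-5p carry the same seed, GAGAACU. The 3 miRNAs that were lower at 12 h share no seed with each other or with the opposite arm shown.

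**Figure D1:**
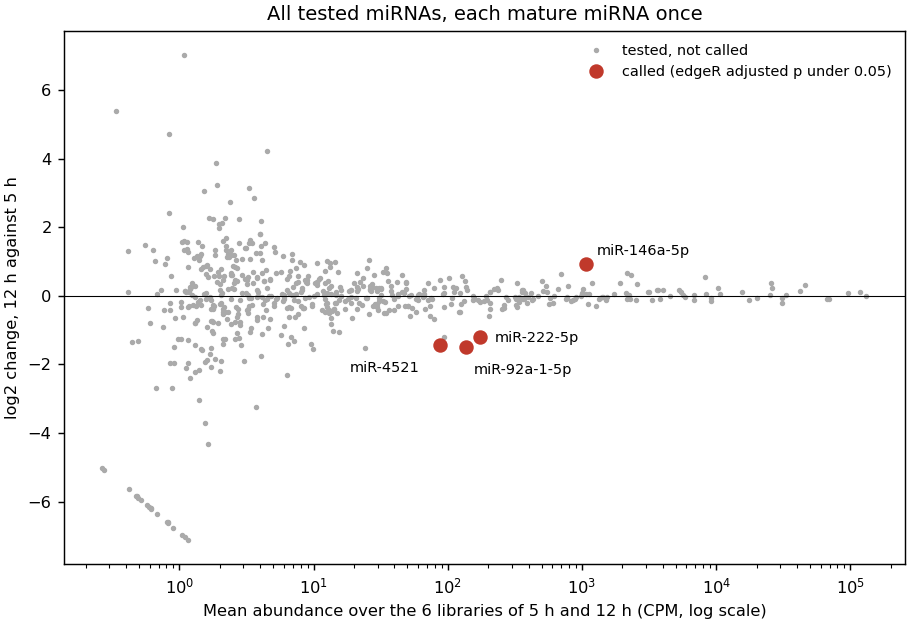
Log2 change from 5 h to 12 h against mean abundance over the 6 libraries (CPM, log axis) for the tested miRNAs with a count in them; each point is 1 mature miRNA. The 4 called miRNAs lie far from 0 for their level, beside miR-21-3p at -1.20, which was not called, while below 10 CPM far larger fitted values occur without passing, and the diagonal at the lower left holds miRNAs at 0 in every 12 h library, whose fitted value depends on the prior count.

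miR-146a-5p is known to be transcribed in response to NF-kB and to repress TRAF6 and IRAK1, adaptors that lead to NF-kB. Its level was 757, 757 and 691 CPM in the 5 h replicates and 1510, 1457 and 1197 CPM in the 12 h replicates. Unactivated cells held 398, 380 and 424 CPM. The 3 times did not overlap, and every library of 12 h lay above every library of 5 h. The 12 h level was 1.89-fold the 5 h level, a log2 change of 0.92 (SE 0.13, 95% interval 0.65 to 1.18, edgeR adjusted p = 0.000194). The same fit gave a log2 difference of 0.88 between 5 h and 0 h, so the steps before and after 5 h were close in size on the log2 scale, although these comparisons share the 5 h libraries. The gene, MIR146A, lies at chr5:160485352-160485450 on the plus strand, in an exon of the long noncoding RNA gene MIR3142HG. Its other arm, miR-146a-3p, did not pass the filter on low counts and was not tested.

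miR-146b-5p, from a separate gene on chromosome 10, shares the seed of miR-146a-5p. It stood at 262, 261 and 302 CPM at 5 h and at 337, 270 and 190 CPM at 12 h. The times overlapped, and the log2 change of -0.05 had a 95% interval of -0.44 to 0.35. Its sign turned with upper quartile factors (0.052) and without replicate 3 of 12 h (0.093). The test of seed families, on counts summed over miRNAs with the same bases 2 to 8, covered 474 families, of which 4 passed (0.844%). Of these, 3 were the lower miRNAs of the comparison, each alone in its family. The fourth was the GAGAACU family, whose summed level was 1019, 1073 and 1045 CPM at 5 h and 1869, 1757 and 1409 CPM at 12 h. Its log2 change was 0.68 (SE 0.12, edgeR adjusted p = 0.00346). Without replicate 2 of 12 h, the family gave an adjusted p of 0.128 in edgeR.

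miR-4521 had the smallest p of the comparison. It fell from 140, 115 and 130 CPM at 5 h to 40.3, 45.9 and 56.0 CPM at 12 h, against 369, 418 and 508 CPM in unactivated cells. The 3 times did not overlap, with the highest level before activation and the lowest at 12 h. Between 5 h and 12 h the level was 2.71-fold lower, a log2 change of -1.44 (SE 0.19, 95% interval -1.82 to -1.05, edgeR adjusted p = 0.000186). The same fit gave -1.75 for 5 h against 0 h.

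The RefSeq hairpin of MIR4521, at chr17:8186945-8187004 on the plus strand, overlaps the end of a serine transfer RNA gene, TRS-GCT4-3 (chr17:8186866-8186947). The mature miRNA begins 1 base after the annotated end of that gene and is followed by 4 U in the hairpin, where the mature miRNA is in capitals.
MIR4521: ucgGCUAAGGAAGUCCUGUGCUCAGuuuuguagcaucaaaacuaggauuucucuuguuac
A run of U after a transfer RNA gene is where RNA polymerase III is known to end transcription, and the short trailers so released are read in small RNA libraries. Transfer RNA genes on both sides lie within 2000 bases, and the table names only 1 arm for this precursor. Whether the reads of miR-4521 come from a miRNA or from such a trailer was not tested, and counts alone cannot tell. A list of miRNAs that match transfer, ribosomal or small nucleolar RNA had 11 tested entries. Of these, miR-4521 was the only one called, beside 4 of the 629 tested (0.636%). The log2 changes of the 11 ran from -1.44 to 2.17, with a median of 0.03. All 12 h libraries lay above all 5 h libraries for 2 of them and below for 2, beside 6.52% each way over all tested. Among the 11, miR-4454, which also matches transfer RNA, stood at 54.2 to 69.7 CPM at 5 h and at 59.2 to 63.1 CPM at 12 h. miR-1246, also on the list, was called higher with no filter and when replicate 1 of 12 h was left out. It was not called in the main test or without replicate 3 of 12 h. At 12 h it had 4120 and 5285 counts in replicates 1 and 2, and 5577 in replicate 3, the shallowest library. The part of depth in these values was not tested.

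**Figure D2:**
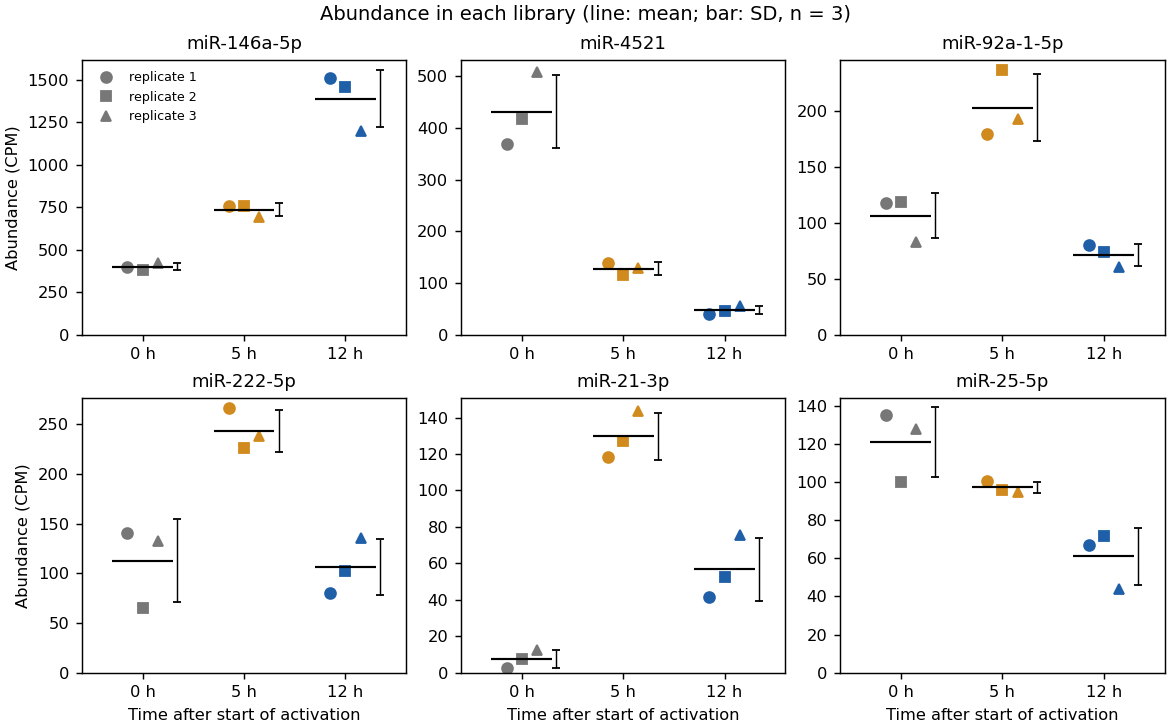
Abundance (CPM, linear axis from 0) of 6 miRNAs in each library at 0 h, 5 h and 12 h; symbols mark the replicate number, horizontal lines the mean and bars the SD (n = 3). miR-146a-5p rises and miR-4521 falls at both steps, whereas miR-92a-1-5p, miR-222-5p and miR-21-3p are highest at 5 h; miR-21-3p and miR-25-5p did not pass the test between 12 h and 5 h.

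miR-92a-1-5p is the less abundant arm of a hairpin whose 3p arm, miR-92a-3p, is a guide of the miR-17-92 cluster, known for promoting lymphocyte growth and survival. It was at 179, 237 and 193 CPM at 5 h and at 80.4, 73.7 and 60.9 CPM at 12 h. The lowest 5 h library was thus above every 12 h library by more than the whole spread at 12 h. Unactivated cells had 117, 119 and 83.1 CPM, between the 2 activated groups. The level was 2.83-fold lower at 12 h (log2 change -1.50, SE 0.21, 95% interval -1.94 to -1.06, edgeR adjusted p = 0.000194). Between 5 h and 0 h the fit gave 0.93, and between 12 h and 0 h -0.57 (edgeR adjusted p = 0.466 for the latter).

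miR-92a-3p, the other arm, stood at 568, 517 and 687 CPM at 5 h and 588, 518 and 572 CPM at 12 h. The times overlapped, and the interval of the log2 change was -0.39 to 0.23, around -0.08, whose sign turned with upper quartile factors. Without replicate 3 of 12 h, the log2 change was -0.15. The hairpin of MIR92A1, at chr13:91351314-91351391 on the plus strand in an exon of MIR17HG, is shown with the 5p arm in capitals, and its 3p arm lies at bases 48 to 69 of the hairpin.
MIR92A1: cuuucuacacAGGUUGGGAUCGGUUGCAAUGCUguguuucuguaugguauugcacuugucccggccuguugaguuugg
The ratio of the 5p to the 3p arm, each with 2 CPM added, was lower at 12 h by 1.41 on the log2 scale (SE 0.30, 95% interval -2.08 to -0.73), and the libraries of the times did not overlap. Another hairpin, MIR92A2, yields the same miR-92a-3p, so the 3p counts in this ratio are not those of MIR92A1 alone. Over all 161 hairpins with both arms tested, none passed in limma (0%), with an adjusted p of 0.161 for this ratio, while 11 had an unadjusted p below 0.05. When only the 68 hairpins with both arms at 10 CPM or more were tested, the ratio of the miR-92a-1 arms was the one that passed, with a limma adjusted p of 0.0121.

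The miR-17-92 transcript carries 5 other hairpin miRNA genes besides MIR92A1. miR-92a-1-5p was the only one of the 11 tested arms of this cluster that was called, beside 4 of the 629 tested (0.636%). The most abundant guide, miR-17-5p, was at 19948 to 21341 CPM at 5 h and at 19035 to 20230 CPM at 12 h. miR-20a-5p, with the same seed, was at 16964 to 18983 CPM and then at 15456 to 17927 CPM. The guides miR-19a-3p and miR-19b-3p were above their 5 h range in all 12 h libraries, at 682 to 743 CPM against 566 to 675 CPM for miR-19a-3p, without passing the test. Of the 11 tested arms, 3 were above in this way and 1 below, beside 6.52% each way over all tested. The summed share of the cluster was 4.51% to 4.78% of counts at 5 h and 4.02% to 4.65% at 12 h, and these ranges overlapped.

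miR-222-5p is the less abundant arm of the miR-222 hairpin, whose 3p arm is known to repress the cell cycle inhibitor p27. It was at 266, 225 and 238 CPM at 5 h and at 80.6, 102 and 136 CPM at 12 h, against 141, 65.0 and 132 CPM in unactivated cells. All 5 h libraries lay above all others, and the 12 h and 0 h libraries overlapped. The level was 2.29-fold lower at 12 h (log2 change -1.20, SE 0.25, 95% interval -1.73 to -0.66, edgeR adjusted p = 0.0253). This call is the weakest of the 4. It was lost without replicate 2 of 12 h (edgeR adjusted p = 0.179), with a filter of 10 CPM in 3 libraries (0.0516) and on the authors' deposited log2 values in limma (0.259).

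The 3p arm, miR-222-3p, was at 1633, 1521 and 1514 CPM at 5 h and at 1553, 1639 and 1393 CPM at 12 h. The times overlapped, with a log2 change of -0.03 (95% interval -0.26 to 0.21) that turned in sign with upper quartile factors. Without replicate 3 of 12 h, the log2 change was -0.015. MIR222 lies at chrX:45747015-45747124 on the minus strand, in an intron of MIR222HG, and its hairpin is shown with the 5p arm in capitals.
MIR222: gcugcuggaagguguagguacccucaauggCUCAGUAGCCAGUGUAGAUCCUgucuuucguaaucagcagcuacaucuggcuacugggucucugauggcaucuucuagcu
The 5p to 3p ratio was lower at 12 h by 1.18 on the log2 scale (SE 0.39, limma adjusted p = 0.254 over the 161 hairpins), with no overlap between the times. miR-221, from the neighbouring hairpin with the same 3p seed, gave 823 to 978 CPM at 5 h and 698 to 912 CPM at 12 h for miR-221-3p. Its 5p arm was at 13.6 to 20.2 CPM and then at 2.91 to 17.1 CPM, where the lowest value is that of replicate 3. Of the 4 arms of these hairpins, miR-222-5p was the only one called, beside 4 of the 629 tested (0.636%).

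A further less abundant arm, miR-21-3p, had the smallest p among the lower miRNAs that did not pass and at least 10 CPM. miR-21-5p, the guide of this hairpin, is known to repress PDCD4, and MIR21 lies at chr17:59841266-59841337 in an exon of VMP1. miR-21-3p stood at 118, 127 and 144 CPM at 5 h and at 41.8, 52.5 and 75.7 CPM at 12 h, against 2.43, 7.63 and 12.7 CPM before activation. The 3 times did not overlap, with the peak at 5 h. Its log2 change was -1.20 (SE 0.37, edgeR adjusted p = 0.402). It passed in edgeR without replicate 1 of 0 h (adjusted p = 0.0316), with no filter (0.000751) and with the 6 libraries of 5 h and 12 h alone (0.0125), and in limma-voom (0.00379).

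miR-21-5p itself was at 994, 1024 and 1118 CPM at 5 h and at 1540, 1161 and 1326 CPM at 12 h. Each 12 h library was above each 5 h library, but the log2 change of 0.36 did not pass (SE 0.14, edgeR adjusted p = 0.668). The arms thus lay in opposite directions, and the 5p to 3p ratio was higher at 12 h by 1.56 on the log2 scale (SE 0.48, limma adjusted p = 0.254). At 0 h that log2 ratio was 4.58 to 6.45, at 5 h 2.94 to 3.05 and at 12 h 4.10 to 5.14. The ratio was lowest at 5 h in every library, and its 12 h values overlapped those of 0 h.

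The remaining lower miRNAs with the smallest p were miR-25-5p, miR-331-3p, miR-92a-2-5p and miR-296-3p, none of which passed. miR-25-5p, the minor product of a hairpin in an intron of the replication gene MCM7, was at 101, 95.9 and 95.1 CPM at 5 h and 67.2, 72.0 and 43.9 CPM at 12 h. Its log2 change was -0.67 (edgeR adjusted p = 0.484), while its guide miR-25-3p was at 1286 to 1475 CPM and then at 1280 to 1573 CPM. The groups of miR-25-5p did not overlap, and those of miR-25-3p did. miR-92a-2-5p comes from a second hairpin, in the miR-106a-363 cluster on the X chromosome, that yields the same miR-92a-3p. Its sequence resembles that of miR-92a-1-5p but has another seed.
miR-92a-2-5p: gGGUGGGGauuuguugcauuac
It was at 19.8 to 23.2 CPM at 5 h and at 11.6, 6.72 and 11.9 CPM at 12 h, with a log2 change of -1.07 (edgeR adjusted p = 0.600). miR-331-3p and miR-296-3p are the more abundant arms of their hairpins. miR-331-3p was at 230 to 261 CPM and then at 108 to 187 CPM, with a log2 change of -0.59 (edgeR adjusted p = 0.516). miR-296-3p was at 122 to 157 CPM and then at 98.3 to 105 CPM, with -0.48 (edgeR adjusted p = 0.600).

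**Figure D3:**
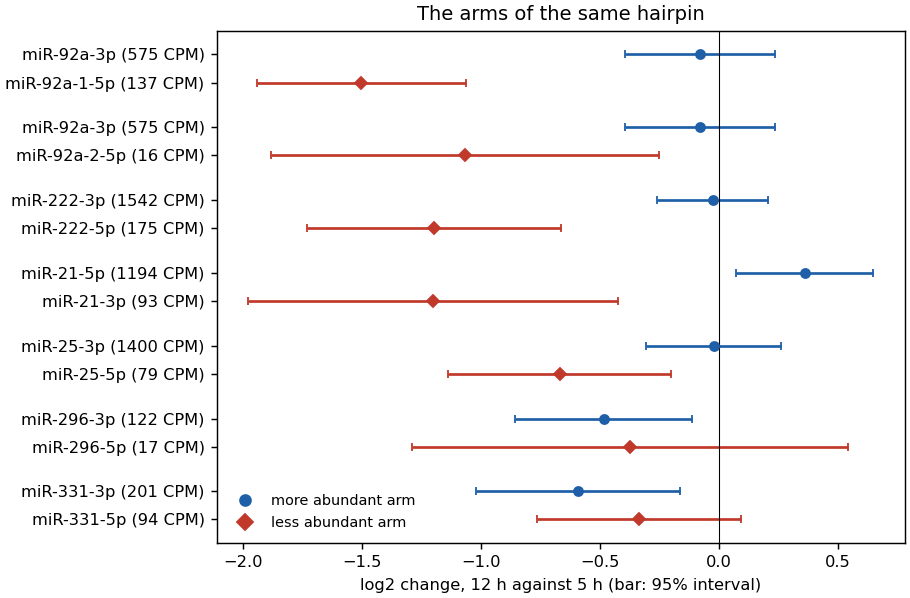
Log2 change from 5 h to 12 h with its 95% interval for the arms of 7 hairpins, each labelled with the mean abundance over the 6 libraries; circles are the more abundant and diamonds the less abundant arm, and miR-92a-3p appears with each of its hairpins. For miR-92a-1, miR-222 and miR-21 the less abundant arm lies at -1.20 or lower with an interval below that of the other arm, while for miR-296 and miR-331 the intervals of the arms overlap.

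The arms were also described as classes, each with a mean of at least 10 CPM over the 6 libraries. Of 66 less abundant arms, 2 were called, both lower, and 11 (16.7%) had all 12 h libraries below all 5 h libraries, while 4 (6.06%) had them above. Of 124 more abundant arms, none was called by edgeR, 4 (3.23%) were below and 10 (8.06%) were above. Among all 290 tested miRNAs at that level, 4 were called, 3 of them lower, 7.93% were below and 9.31% above. Over all 629 tested, the 5 h and 12 h libraries did not overlap for 82 miRNAs (13%), with 41 higher (6.52%) and 41 lower (6.52%), and the arm ratios did not overlap for 27 of the 161 hairpins (16.8%).

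The median log2 change was -0.10 for the less abundant and 0.00 for the more abundant arms, with 40 of 66 and 62 of 124 below 0. These splits depended on the scaling and the libraries. With upper quartile factors, which moved the median of all 290 to 0.09, 34 of 66 and 36 of 124 were below 0, and the medians were -0.01 and 0.10. Without the 2 shallowest libraries, 44 of 66 and 75 of 124 were below 0, with medians of -0.11 and -0.05. The share of counts in less abundant arms was 1.60% to 1.75% at 5 h and 1.51% to 1.67% at 12 h, and these ranges overlapped. The difference between the classes was not tested.

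**Figure D4:**
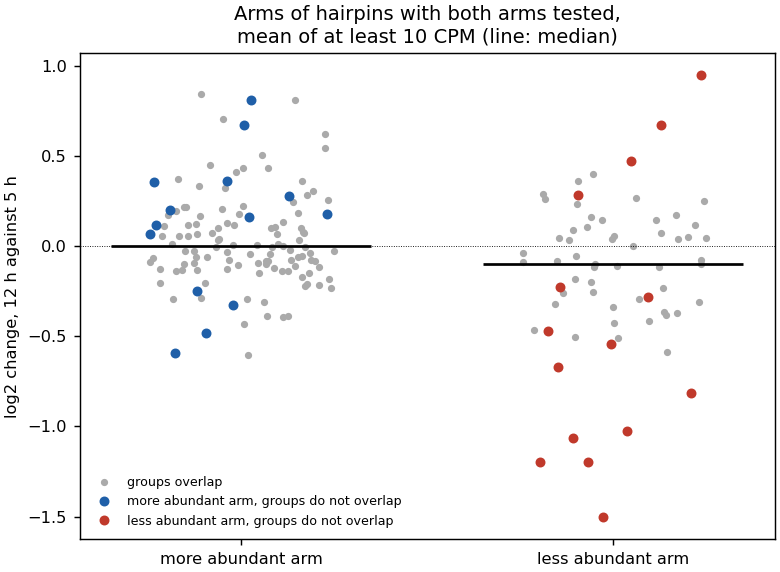
Log2 change from 5 h to 12 h of each arm with a mean of at least 10 CPM, for hairpins with both arms tested; coloured points have 5 h and 12 h libraries that do not overlap, and lines are medians. Among less abundant arms 11 coloured points lie below 0 and 4 above, and among more abundant arms 4 lie below and 10 above.

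Apart from miR-146a-5p, no miRNA passed as higher at 12 h. The 5 with the smallest p among the rest at 10 CPM or more were miR-1307-3p, miR-138-5p, miR-425-3p, miR-7-5p and miR-660-5p. miR-7-5p is known for repressing the EGF receptor and for its binding by the circular RNA CDR1as, and miR-425 shares a transcript with the abundant miR-191.

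miR-1307-3p was at 1820, 1536 and 1675 CPM at 5 h and at 1889, 2738 and 3397 CPM at 12 h, with a log2 change of 0.67 (SE 0.19, edgeR adjusted p = 0.319). miR-425-3p was at 1902, 1745 and 1823 CPM and then at 1785, 2936 and 3681 CPM, with a log2 change of 0.62 (edgeR adjusted p = 0.484). miR-7-5p was at 6122, 7650 and 6462 CPM and then at 6084, 10618 and 12810 CPM, with a log2 change of 0.54 (edgeR adjusted p = 0.516). In these 3 miRNAs replicate 1 of 12 h was near the 5 h level, replicate 2 was higher and replicate 3, the shallowest library, was highest. The other shallow library, replicate 3 of 0 h, was also the highest of its group, with 2727 CPM for miR-1307-3p, 3310 CPM for miR-425-3p and 10758 CPM for miR-7-5p. The part of depth in these values was not tested. Without replicate 3 of 12 h the log2 changes were 0.41, 0.32 and 0.25 (edgeR adjusted p = 0.919, 0.919 and 0.945). With replicate 1 of 12 h left out instead, they were 0.80, 0.78 and 0.72, and all 3 passed. All 3 also passed with the 9 libraries and no filter on low counts (edgeR adjusted p = 0.000333, 0.00141 and 0.00223).

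miR-138-5p had another pattern. It was at 16.8, 19.4 and 14.0 CPM at 5 h and at 27.4, 32.9 and 43.9 CPM at 12 h, against 22.4, 21.3 and 20.2 CPM in unactivated cells. Each 12 h library lay above every other library, with a 2.07-fold higher level (log2 change 1.05, SE 0.34, edgeR adjusted p = 0.473). miR-660-5p was at 386 to 495 CPM and then at 496 to 734 CPM, with a log2 change of 0.43 (edgeR adjusted p = 0.668), or 0.17 without replicate 3 of 12 h, its highest library.

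**Figure D5:**
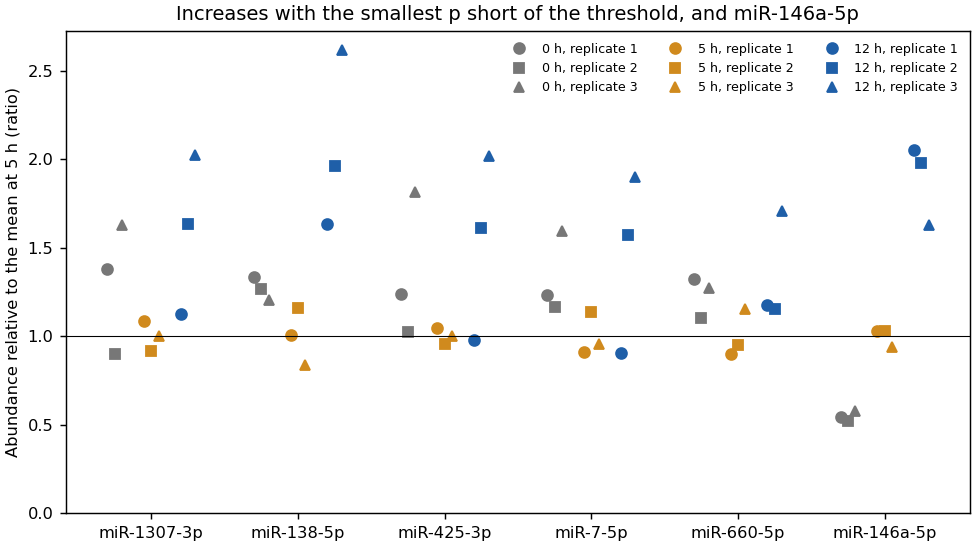
Abundance relative to the mean at 5 h (ratio, linear axis from 0) in each of 9 libraries for 5 miRNAs that were higher at 12 h without passing and for miR-146a-5p, which passed. For miR-1307-3p, miR-425-3p and miR-7-5p the ratio at 12 h spreads from 1.13, 0.98 and 0.90 in replicate 1 to 2.03, 2.02 and 1.90 in replicate 3, whereas for miR-146a-5p it lies between 1.63 and 2.05.

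The count of increases among abundant miRNAs varied with the libraries and the scaling. Above 1000 CPM, 9 of 59 miRNAs had an unadjusted p below 0.05 in edgeR, all 9 in the upward direction and the called miR-146a-5p among them. Over all 629 tested, 41 had such a p, 23 higher and 18 lower. Leaving out replicate 3 of 12 h gave 3, also upward, and leaving out replicate 1 of 12 h gave 8 higher and 4 lower. Leaving out another library of 5 h or 12 h gave 4 to 8 higher and 0 to 3 lower, and upper quartile factors gave 16 higher and none lower. miR-181a-5p, known to set the sensitivity of the T cell receptor, was one of the 9. It stood at 41913, 38867 and 41057 CPM at 5 h and at 40923, 46879 and 64444 CPM at 12 h. The highest value was in replicate 3, and the log2 change of 0.32 did not pass (edgeR adjusted p = 0.712). Without that library it was 0.06.

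The miRNAs that make up most of the pool were bounded within a 2-fold change from their 5 h levels. The 10 most abundant held 67.6% ± 0.746 of counts at 5 h and 66.9% ± 0.668 at 12 h (SD, n = 3 each). The difference of -0.777 percentage points gave p = 0.3 in an exact two-sided permutation test, in which 3 against 3 cannot go below 0.1. None of the 10 was called, and each had a 95% interval within a 2-fold change. Within this bound single mean shares still differed, with 4.18% at 5 h and 5.04% at 12 h for miR-181a-5p. For let-7d-5p they were 3.38% and then 2.85%. let-7a-5p, of a family known to repress growth genes, was at 126149 to 142314 CPM at 5 h and at 121771 to 135629 CPM at 12 h. miR-191-5p was at 106930 to 118728 CPM and then at 109132 to 136005 CPM, and miR-16-5p, a repressor of cyclins, was at 82992 to 100373 CPM and then at 93686 to 101363 CPM. All 9 tested let-7 members had intervals within 2-fold, and their summed share was 38.1% to 40.8% at 5 h and 36.5% to 38.2% at 12 h.

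A list of miRNAs known for induction by T cell activation had 18 tested members. Of these, 1 was called higher (miR-146a-5p) and 1 lower (miR-222-5p), beside 4 of the 629 tested (0.636%), and the median log2 change was 0.00, as over all tested miRNAs. miR-132-3p, made from a CREB-induced transcript, was at 5095, 4351 and 5309 CPM at 5 h and at 5569, 5412 and 5675 CPM at 12 h, against 644 to 769 CPM in unactivated cells. All 12 h libraries were above all 5 h libraries, but by a log2 change of 0.17 that did not pass (95% interval -0.06 to 0.41, edgeR adjusted p = 0.878). Without replicate 3 of 12 h, the log2 change of miR-132-3p was 0.11. Its less abundant arm, miR-132-5p, was at 85.8, 77.2 and 79.1 CPM and then at 57.0, 78.4 and 61.9 CPM. These values overlapped, with a log2 change of -0.29 (95% interval -1.39 to 0.80).

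miR-212-3p lies on the same transcript as miR-132-3p, and both carry the seed AACAGUC.
miR-132-3p: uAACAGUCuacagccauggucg
miR-212-3p: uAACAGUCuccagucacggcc
miR-212-3p was at 20.1, 15.2 and 17.2 CPM at 5 h and at 14.9, 12.2 and 30.3 CPM at 12 h, where replicate 3 was the highest. The log2 change of 0.12 had a 95% interval of -1.42 to 1.67, and its sign turned in limma-voom (-0.12) and without replicate 3 of 12 h (-0.42). miR-155-5p, a promoter of T cell responses, was at 12.4 to 16.3 CPM at 5 h and 11.3 to 20.3 CPM at 12 h, against 0.91 to 9.50 CPM before activation.

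Other listed miRNAs overlapped or differed little. The cluster of miR-183-5p, miR-96-5p and miR-182-5p, of which miR-182-5p is known to repress FOXO1 in T cells, had no called member. miR-183-5p was at 2821 to 3275 CPM at 5 h and 2960 to 3738 CPM at 12 h, and miR-182-5p was at 2149 to 2331 CPM and then at 1727 to 2362 CPM. miR-96-5p was at 106 to 150 CPM and then at 147 to 149 CPM. The hypoxia-induced miR-210-3p was at 31.0 to 40.1 CPM and then at 35.6 to 42.7 CPM. miR-9-5p was at 285 to 312 CPM and then at 166 to 293 CPM, with its lowest value in replicate 3 of 12 h and a log2 change of -0.37 (edgeR adjusted p = 0.749), or -0.23 without that library. Of the 8 tested members of a list linked to NF-kB, miR-146a-5p was the only one called, beside 4 of the 629 tested (0.636%). The median of the 8 was -0.04.

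In all, 19 lists of miRNAs were described, and 14 had no called member by edgeR. The others were the activation, NF-kB, miR-17-92, miR-222 cluster and structured RNA lists. Among those with none, all 11 tested members of a list of miRNAs known to decline with T cell activation had an interval within 2-fold, with a median of -0.04. The 7 tested arms of the miR-29 family, known to repress the T-bet and interferon-gamma messages, were all below 0 with a median of -0.13. Over all 629 tested, 314 were below 0. All 12 h libraries lay below all 5 h libraries for 1 of the 7 arms, beside 6.52% over all tested, and 5 of the 7 reached 10 CPM. The guide miR-29a-3p was at 1288 to 1441 CPM and then at 1043 to 1446 CPM. The 9 tested arms of the miR-181 family had a median of 0.12, with replicate 3 of 12 h highest for miR-181b-5p, at 32927 CPM against 22333 to 25320 CPM at 5 h. Among blood lineage miRNAs, 7 of 8 had an interval within 2-fold, and miR-142-3p, which marks blood cells, was at 15128 to 17338 CPM at 12 h against 14421 to 15289 CPM at 5 h. The families of miR-15/16 (10 tested), miR-30 (9 tested) and miR-23/27/24 (10 tested), the miR-106b-25 (6 tested) and miR-106a-363 (8 tested) clusters and the p53-linked list (2 tested) had no called member either.

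At the lower end, 414 miRNAs had a count in all 6 libraries, and few were found at 1 time alone. miR-4733-3p and miR-5703 had no count at 5 h and counts in all 3 libraries of 12 h, and neither was tested. miR-5703 had 9, 5 and 16 counts, and its mean at 12 h was 15.2-fold a floor of 3 counts over the 5 h group. In the other direction, 7 miRNAs had no count at 12 h and counts in all 3 libraries of 5 h. Their means at 5 h were 7.77-fold the floor at 12 h or more. All of these were picked by the same counts, so the folds only describe them. Of these, miR-6895-5p, with 10, 15 and 13 counts, was tested and did not pass. The floors of 3 counts cover counting error only, not the spread between replicates. None of the 339 tested miRNAs below 10 CPM had an interval within 2-fold, and their median SE was 1.79 on the log2 scale, against 0.12 above 1000 CPM, so a 2-fold change was not detectable at that level.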

How the data were processed

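Small RNA libraries of 9 samples were analysed, with groups and replicate numbers from the labels, which name no batch. The authors deposited raw counts with 1 row for each pair of precursor and mature miRNA (2883 rows, 1917 precursors). The submitters' processing notes name the genome build GRCh38.p13 and DESeq2, while no aligner or counting tool is given in the sources used here. The labels' protocols name a column kit for total RNA and a RealSeq kit. Of the mature miRNAs, 165 have more than 1 row. The authors also deposited log2 normalised values, used in an alternative only.

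Counts were filtered with filterByExpr (minimum count 10, minimum total 15) and scaled by TMM. R 4.3.3 and edgeR 4.0.16 fitted 1 mean per time over all 9 libraries by quasi-likelihood, and p-values were adjusted over all 629 tested. "Called" means an adjusted p below 0.05. Arm ratios, log2 of the 5p over the 3p CPM with 2 CPM added to each, were tested with limma 3.58.1, and seed families with edgeR on summed counts. Groups that do not overlap have all 3 values of one time above all 3 of the other. The common biological coefficient of variation was 78.7%, most tested miRNAs being low. No libraries were duplicates: between replicates, chi-square per degree of freedom was 64.0 or more. Sequences come from RefSeq, which matched 557 of the tested miRNAs, and host genes from GENCODE 29. The fits were tested on simulated data. Figures were drawn with matplotlib 3.10.9.

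The miRNAs named are those called, their opposite arms, the 5 with the smallest p in each direction that did not pass at 10 CPM or more, the 10 most abundant, members of the activation and NF-kB lists at 10 CPM or more, and up to 3 abundant members of each other list. miR-19a-3p, miR-19b-3p, miR-4733-3p, miR-5703 and miR-6895-5p were chosen for naming after seeing their values. The comparison, the lists and the alternatives were chosen with earlier results of these data known.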

Additional observations from a re-analysis of the deposited data

How the results depend on the processing

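miR-146a-5p, miR-4521 and miR-92a-1-5p kept their direction and passed under every alternative in which they were tested, with log2 changes of 0.78 to 1.01, -1.62 to -1.34 and -1.67 to -1.41. The alternatives were other scalings and filters, DESeq2 1.42.0, limma-voom, every precursor row, only the 6 libraries, the deposited log2 values, the replicate block and each library left out. miR-222-5p was lost in the 3 cases given beside it (log2 changes of -1.21, -1.21 and -1.25). With no filter, 10 miRNAs were called, 6 of them higher, and the cause was not tested. Leaving out single libraries gave 3 to 8 calls, 1 to 5 of them higher. The replicate numbers did not pair the samples, with correlations of -0.05, 0.10 and 0.04 between same-numbered libraries of 5 h and 12 h. The replicate block gave 10 calls, 6 of them higher, and 10 seed families. The calls added were those added with no filter: miR-1307-3p, miR-425-3p, miR-7-5p, miR-1246 and miR-6125 (higher) and miR-21-3p (lower). Seed families numbered 2 to 8 when single libraries were left out. The stricter filter left 54 miRNAs whose groups do not overlap, as fewer were tested, and leaving out a library gave 84 to 173, with 138 or more where it was one of 5 h or 12 h, since groups of 2 overlap less often. Without the 2 shallowest libraries, an alternative that leaves 2 at 12 h, there were 140. Of values near 0 that were not called, the sign turned with upper quartile factors for miR-92a-3p (0.019), miR-222-3p (0.069) and miR-146b-5p (0.052). It turned without the 2 shallowest libraries for miR-146b-5p (0.10) and miR-212-3p (-0.41), and in limma-voom for miR-212-3p (-0.12). With single libraries left out, it turned for miR-92a-3p (-0.22 to 0.041), miR-146b-5p (-0.33 to 0.093) and miR-212-3p (-0.42 to 0.32). With both arms at 10 CPM or more, 1 arm ratio passed. The arm classes under upper quartile factors and without the 2 shallowest libraries, and the counts above 1000 CPM and the value of miR-181a-5p without a library, were added after the data were seen.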
